A study of Mus musculus with 4 samples.

Results

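The plasminogen activator system was followed through 5 genes, the urokinase gene *Plau*, its receptor *Plaur*, the tissue-type activator *Plat* and the serpins *Serpine2* and *Serpinb2*. They were taken by name from the deposited RPKM table, in which a transcript was given the symbol of the gene that it overlaps on the same strand of mm10, and each gene was represented by the transcript with the longest gene body. All 5 were found, with 11 of the 63759 transcripts of the table, among 25731 genes. RNA-seq was performed in immortalized mouse embryonic fibroblasts (MEF) from C57BL/6 embryos of day 15.5, either *Hmga2*+/+ or *Hmga2*-/-, which were starved overnight in medium with 1% FCS and received water (Ctrl) or 10 ng/ml of human recombinant TGFB1 for 24 h. Each of the 4 combinations of genotype and treatment is 1 library, so that a TGFB1 comparison and a genotype comparison share a library. The cells of both genotypes had been immortalized with simian virus 40, and how many embryos or lines stand behind each genotype is not given in the sources used here, so a difference of genotype and a difference between lines cannot be told apart. With 1 library per condition the spread between cultures is unknown. No test was run and no p-value is given, since a fit over the 4 libraries could take its error only from the difference between genotypes in the response.

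Plasmin is a broad serine protease that dissolves fibrin and cleaves matrix proteins, and it is made from the circulating zymogen plasminogen by the urokinase and tissue-type activators. The urokinase receptor holds urokinase at the cell surface, and serpins trap the activators in covalent complexes that cells take up through receptors of the LDL receptor family. In fibroblasts this system governs pericellular proteolysis during migration and wound repair, and several of its genes are known to respond to TGFB1.

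The upstream sequences of the members are shown first, for each member that had one, which leaves out *Plau* and *Plat*. RefSeq sequences for build GRCm38.p6 were found for 3 of the 5 members and are printed 5′ to 3′ up to the start of the transcript, with bases in an annotated exon left out. Capitals mark matches, on either strand, to the AP-1 motif TGANTCA, the SMAD box CAGAC, the GC box GGGCGG and the TATA box TATAAA. The windows are chr1:79858697-79858915 on the minus strand for *Serpine2*, chr7:24462233-24462482 on the plus strand for *Plaur* and chr1:107511173-107511422 on the plus strand for *Serpinb2*.
Serpine2: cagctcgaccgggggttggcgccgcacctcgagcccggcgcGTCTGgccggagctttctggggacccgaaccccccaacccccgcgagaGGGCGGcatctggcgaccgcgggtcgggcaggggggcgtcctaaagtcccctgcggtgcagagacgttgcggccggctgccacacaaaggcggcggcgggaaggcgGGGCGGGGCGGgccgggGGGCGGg
Plaur: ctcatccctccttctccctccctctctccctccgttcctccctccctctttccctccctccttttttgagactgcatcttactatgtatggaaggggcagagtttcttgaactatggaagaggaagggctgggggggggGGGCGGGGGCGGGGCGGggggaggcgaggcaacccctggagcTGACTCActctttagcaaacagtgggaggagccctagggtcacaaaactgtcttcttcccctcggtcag
Serpinb2: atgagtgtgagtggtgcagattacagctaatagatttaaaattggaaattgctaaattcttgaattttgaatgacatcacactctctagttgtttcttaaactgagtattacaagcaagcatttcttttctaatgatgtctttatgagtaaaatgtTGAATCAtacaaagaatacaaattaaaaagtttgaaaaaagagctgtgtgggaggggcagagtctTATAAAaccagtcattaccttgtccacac

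Counted over the 250 bases before each start, *Plaur* held 1 AP-1 motif, at position -69 relative to the start, and 3 overlapping or adjoining GC boxes. *Serpinb2* held 1 AP-1 motif at position -94 and a TATA box at position -29, with no GC box. *Serpine2* had no AP-1 motif and no TATA box, but 6 GC boxes, some of which overlap, and 1 SMAD box at position -209. Of these GC boxes 4 lie in the printed stretch, since 31 bases next to the start are annotated as exon. Among 32851 mouse promoter windows of the same length, 6.75% held the AP-1 motif, 42.2% the SMAD box, 32.7% the GC box and 12.4% the TATA box. The windows also differed in base composition, with 78.8% G or C in *Serpine2*, 59.6% in *Plaur* and 32.4% in *Serpinb2*, against a median of 52.4% over all windows. These are matches of letters and not measured binding sites.

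Depth was similar in the 4 libraries, with 56140000 to 57300000 mapped reads, derived from the steps in which low RPKM values occur. RPKM is the number of reads on a transcript scaled to its length in kilobases and to the mapped reads of the library. At this depth 3 reads on a transcript of 1 kb correspond to 0.0524 to 0.0534 RPKM, and intervals are exact 95% intervals unless stated otherwise, all covering counting error only. The targeted gene *Hmga2* itself had 0 reads in either *Hmga2*-/- library, against 14.8 RPKM in *Hmga2*+/+ cells with water and 40.7 RPKM with TGFB1. The TGFB1 target *Ccn2* (*Ctgf*) went from 13.2 to 173 RPKM in *Hmga2*+/+ cells and from 24.9 to 359 RPKM in *Hmga2*-/- MEF. All 7 fibroblast markers examined were between 4.11 and 1497 RPKM, whereas the leukocyte marker *Ptprc* and the endothelial markers *Pecam1* and *Cdh5* did not exceed 0.048 RPKM. The epithelial markers *Epcam* and *Cdh1*, summed to between 0.205 and 0.758 RPKM. *Kdr*, an endothelial receptor, went from 1.11 to 4.46 RPKM on TGFB1 in *Hmga2*+/+ MEF and from 1.46 to 7.39 RPKM in *Hmga2*-/- MEF, and the macrophage marker *Cd68* was between 1.25 and 1.63 RPKM. The part of other cells in the results was not tested.

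The receptor and 1 of the 2 activators rose with TGFB1 in both genotypes, and the other activator and the serpin *Serpine2* differed between treatments by less than 1.5-fold. *Plaur* rose about as much in *Hmga2*-/- as in *Hmga2*+/+ MEF. *Serpine2* was more than 2-fold higher in both *Hmga2*-/- libraries than in their *Hmga2*+/+ counterparts. *Plat* was the only one of the 4 members that reached 1 RPKM to be lower in *Hmga2*-/- than in *Hmga2*+/+ MEF under both treatments.

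**Figure D1:**
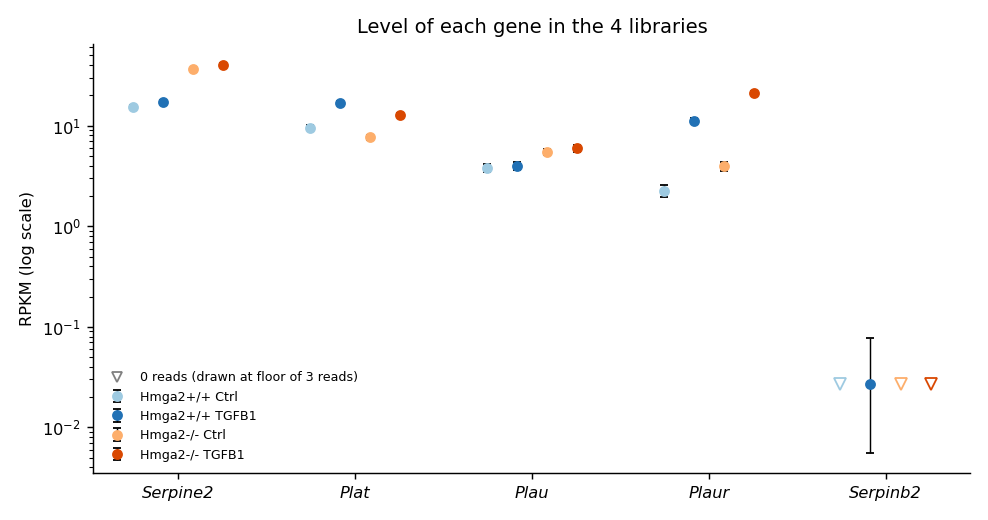
Level of each of the 5 genes in each of the 4 libraries, in RPKM on a log scale, with points for single libraries and bars for exact 95% intervals from counting error; open triangles stand for 0 reads and are drawn at the level of 3 reads. The *Plaur* points separate by treatment, from 2.24 and 3.95 RPKM in the Ctrl libraries to 11.2 and 21.0 RPKM in the TGFB1 libraries, while those of *Serpine2* separate by genotype.

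*Plaur*, which encodes the GPI-anchored urokinase receptor and lies on the plus strand of chromosome 7 from 24462483 to 24475968, was measured on a transcript of 1713 bases. It had 2.24 RPKM in the *Hmga2*+/+ Ctrl, 11.2 RPKM in the *Hmga2*+/+ TGFB1, 3.95 RPKM in the *Hmga2*-/- Ctrl and 21.0 RPKM in the *Hmga2*-/- TGFB1 library, from 215, 1100, 383 and 2047 reads. Both TGFB1 libraries lay above both Ctrl libraries, and within each treatment the *Hmga2*-/- library was the higher one. The rise was 5.01-fold in *Hmga2*+/+ MEF (interval 4.33 to 5.83) and 5.31-fold in *Hmga2*-/- MEF (interval 4.76 to 5.94). Among the 11295 genes that reached 1 RPKM in any library, called expressed genes hereafter, 122 had a larger TGFB1 ratio than *Plaur* in *Hmga2*+/+ MEF and 135 had one in *Hmga2*-/- MEF. Between genotypes, *Plaur* was 1.77-fold higher in *Hmga2*-/- MEF with water (log2 ratio 0.82, interval 0.58 to 1.07) and 1.87-fold higher with TGFB1 (log2 ratio 0.90, interval 0.80 to 1.01). The second *Plaur* transcript of the table, of 1495 bases with the same ends, gave 4.94-fold and 5.38-fold for the TGFB1 response.

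*Plau*, the gene for urokinase, lies on the plus strand of chromosome 14 from 20836662 to 20843388 and was measured on a transcript of 2347 bases. Its level was 3.83 RPKM in the *Hmga2*+/+ Ctrl, 3.99 RPKM in the *Hmga2*+/+ TGFB1, 5.51 RPKM in the *Hmga2*-/- Ctrl and 5.94 RPKM in the *Hmga2*-/- TGFB1 library. The protease thus differed little with the treatment under which its receptor rose, and both *Hmga2*-/- libraries were above both *Hmga2*+/+ libraries. The log2 TGFB1 ratio was 0.06 in *Hmga2*+/+ MEF (interval -0.12 to 0.24) and 0.11 in *Hmga2*-/- MEF (interval -0.04 to 0.26), so a difference was not detectable at this depth. *Plau* was 1.44-fold higher in *Hmga2*-/- than in *Hmga2*+/+ MEF in the Ctrl libraries (interval 1.28 to 1.62) and 1.49-fold higher in the TGFB1 libraries (interval 1.33 to 1.67), just under the threshold of 1.5-fold. The other *Plau* transcript of the table differs by 25 bases in length and was between 3.88 and 6.03 RPKM.

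*Plat*, which encodes the tissue-type activator, lies on the plus strand of chromosome 8 from 22757722 to 22782848 and was measured on a transcript of 2527 bases. It had 9.57 RPKM in the *Hmga2*+/+ Ctrl, 16.9 RPKM in the *Hmga2*+/+ TGFB1, 7.67 RPKM in the *Hmga2*-/- Ctrl and 12.8 RPKM in the *Hmga2*-/- TGFB1 library. Both TGFB1 libraries were above both Ctrl libraries. *Plat* rose 1.77-fold with TGFB1 in *Hmga2*+/+ MEF (interval 1.65 to 1.89) and 1.67-fold in *Hmga2*-/- MEF (interval 1.55 to 1.81). The log2 ratio of *Hmga2*-/- over *Hmga2*+/+ was -0.32 in Ctrl (interval -0.44 to -0.20) and -0.40 in TGFB1 (interval -0.49 to -0.31), which is less than 1.5-fold. A second transcript of 4036 bases, whose ends lie within 5 bases of a form that GENCODE annotates as a retained intron, was between 1.42 and 2.60 RPKM. Its TGFB1 ratio was 1.45-fold in *Hmga2*+/+ and 1.28-fold in *Hmga2*-/- MEF, so that the protein-coding transcript exceeded it 5.33-fold and 5.39-fold in the Ctrl libraries and 6.50-fold and 7.03-fold in the TGFB1 libraries. The 2 transcripts overlap, and reads in the part they share cannot be told apart.

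*Serpine2*, which encodes protease nexin 1, a serpin that inhibits thrombin, urokinase and the tissue-type activator at the cell surface, spans bases 79794321 to 79858665 of chromosome 1 on the minus strand. Its transcript of 2038 bases had 15.3 RPKM in the *Hmga2*+/+ Ctrl, 17.2 RPKM in the *Hmga2*+/+ TGFB1, 36.4 RPKM in the *Hmga2*-/- Ctrl and 40.4 RPKM in the *Hmga2*-/- TGFB1 library, from 1747, 2012, 4199 and 4686 reads. The levels separated by genotype, with both *Hmga2*-/- libraries above both *Hmga2*+/+ libraries, and moved little with treatment. The *Serpine2* level of *Hmga2*-/- MEF was 2.38 times that of *Hmga2*+/+ MEF in the Ctrl libraries (interval 2.25 to 2.52) and 2.34 times in the TGFB1 libraries (interval 2.22 to 2.47). Among the 11295 expressed genes, 80 had a larger ratio of *Hmga2*-/- over *Hmga2*+/+ in Ctrl and 90 had one in TGFB1. The TGFB1 ratio was 1.13-fold in *Hmga2*+/+ MEF (interval 1.06 to 1.20) and 1.11-fold in *Hmga2*-/- MEF (interval 1.06 to 1.16), which exceeds counting error but not the 1.5-fold threshold. A transcript of 2279 bases, whose ends lie within 31 bases of a form that GENCODE annotates as a retained intron, was at 3.38, 3.45, 8.63 and 9.32 RPKM in the same order of libraries and was 2.56-fold and 2.70-fold higher in *Hmga2*-/- MEF in Ctrl and TGFB1. Its TGFB1 ratio was 1.02-fold in *Hmga2*+/+ (interval 0.89 to 1.17) and 1.08-fold in *Hmga2*-/- MEF (interval 0.99 to 1.17), and both intervals include 1. These *Serpine2* transcripts overlap, and reads in the part they share cannot be told apart.

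*Serpinb2* encodes plasminogen activator inhibitor 2, a serpin that is made in quantity by activated macrophages and keratinocytes, and lies on the plus strand of chromosome 1 from 107511423 to 107525600. It had 0 reads in the *Hmga2*+/+ Ctrl, the *Hmga2*-/- Ctrl and the *Hmga2*-/- TGFB1 library and 3 reads, or 0.027 RPKM, in the *Hmga2*+/+ TGFB1 library. The exact upper limit of a count of 0 was 0.0336 RPKM in the *Hmga2*+/+ Ctrl, 0.0333 RPKM in the *Hmga2*-/- Ctrl and 0.0331 RPKM in the *Hmga2*-/- TGFB1 library, above the value from 3 reads, so no difference was detectable and no fold is given. The other 2 *Serpinb2* transcripts of the table had 0 reads in the same 3 libraries and 3 and 2 reads in the *Hmga2*+/+ TGFB1 library.

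**Figure D2:**
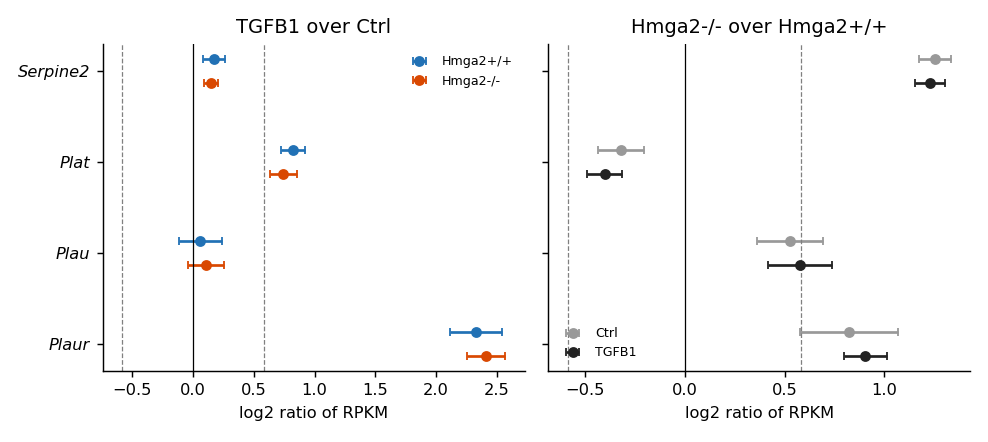
The log2 ratios of RPKM of the 4 expressed genes, for TGFB1 over Ctrl in each genotype (left) and for *Hmga2*-/- over *Hmga2*+/+ under each treatment (right), with exact 95% intervals from counting error as bars and the 1.5-fold threshold as dashed lines. *Plaur* stands out on the left at 2.33 and 2.41 and *Serpine2* on the right at 1.25 and 1.23, and *Plat* is the one gene on the left of 0 in the right panel.

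With 0 RPKM set to 0.001, 3 of the 5 members rose at least 1.5-fold in *Hmga2*+/+ MEF, the threshold by which the study calls a gene TGFB1 inducible in these cells. The same threshold applied to *Hmga2*-/- MEF gave 2 members. *Plaur* and *Plat* rose in both genotypes, and *Serpinb2* only through its 3 reads against 0. For comparison, 11.7% of all 25731 genes rose by this rule in *Hmga2*+/+ MEF and 12.9% in *Hmga2*-/- MEF, and no member fell, while 19.2% and 18.3% of all genes did. Among expressed genes the shares that rose were 12.1% and 13.8%, and those that fell were 17.5% and 15.8%. Between genotypes, 2 members, *Serpine2* and *Plaur*, were at least 1.5-fold higher in *Hmga2*-/- MEF in both treatments, beside 8.44% of all genes in Ctrl and 9.37% in TGFB1, and beside 2.93% and 3.84% of the expressed genes. No member was at least 1.5-fold lower in the *Hmga2*-/- Ctrl library, where 8.83% of all genes and 2.70% of expressed genes were, and in TGFB1 the 3 reads of *Serpinb2* made it the 1 member that was lower by this rule, beside 8.27% of all genes and 2.75% of expressed genes. The median log2 ratio over the 4 expressed members was 0.50 and 0.45 for TGFB1 in *Hmga2*+/+ and *Hmga2*-/- MEF and 0.67 and 0.74 for the genotype in Ctrl and TGFB1. Over all 11295 expressed genes the corresponding medians were -0.05, 0.01, -0.02 and 0.04.

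**Figure D3:**
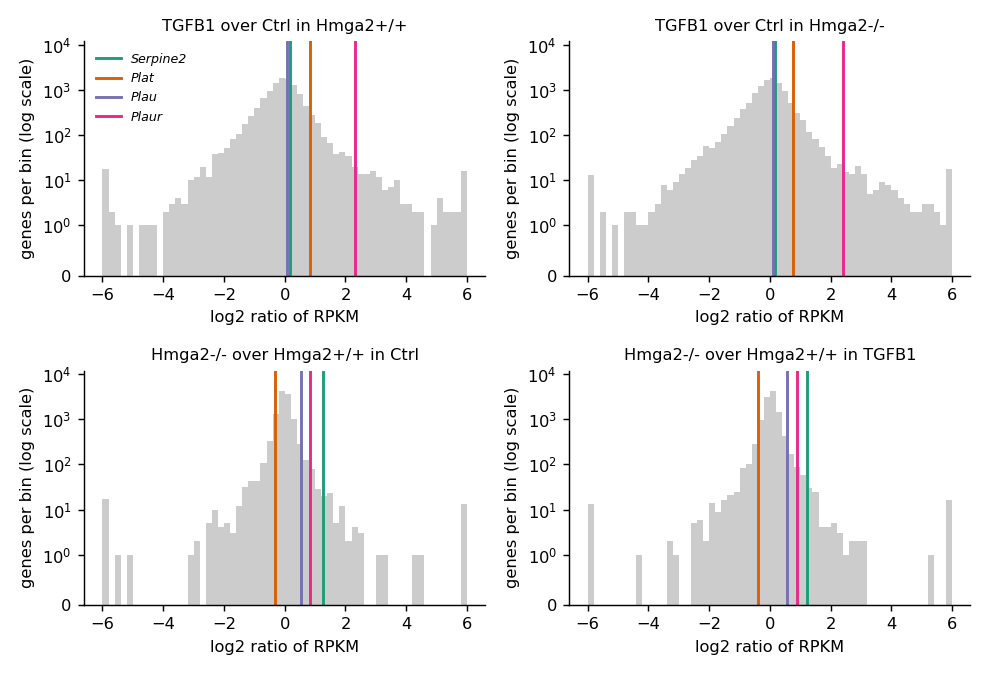
Number of genes per bin of log2 ratio (log scale from 1, with values beyond 6 in the outermost bins) among the 11295 expressed genes, in the 4 comparisons, with coloured lines for the 4 expressed members. The *Plaur* line lies far to the right of the bulk of genes in both TGFB1 panels and the *Serpine2* line does so in both genotype panels, where 2.93% of genes in Ctrl and 3.84% in TGFB1 were at least 1.5-fold higher in *Hmga2*-/- MEF.

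The TGFB1 response of each expressed member was of similar size in the 2 genotypes. The log2 response in *Hmga2*-/- minus that in *Hmga2*+/+ MEF was -0.02 for *Serpine2* (interval -0.14 to 0.09), 0.05 for *Plau* (interval -0.18 to 0.28), 0.08 for *Plaur* (interval -0.18 to 0.35) and -0.08 for *Plat* (interval -0.22 to 0.06). These intervals rest on a normal approximation to the log of the reads and cover counting error only. Each of them includes 0, so that a difference between the responses was not detectable for any of the 4 genes, and for *Plaur* differences of up to 0.35 on the log2 scale remain possible from counting error alone. Among expressed genes, between 9.21% and 30.6% had a smaller absolute difference between the genotypes than these members.

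The order of the members changed with treatment. With water, *Serpine2* was highest in *Hmga2*+/+ MEF, followed by *Plat*, *Plau*, *Plaur* and *Serpinb2*, and the same order held in the *Hmga2*-/- Ctrl library, with no neighbouring pair whose counting intervals overlapped. In the *Hmga2*+/+ TGFB1 library *Plaur* had passed *Plau*, and *Serpine2* and *Plat*, at 17.2 and 16.9 RPKM, had overlapping intervals. In the *Hmga2*-/- TGFB1 library *Plaur* had also passed *Plat* and was second to *Serpine2*. The receptor stood at 0.585 times the RPKM of its ligand in *Hmga2*+/+ MEF with water and at 2.81 times with TGFB1. In *Hmga2*-/- MEF the ratio of *Plaur* to *Plau* was 0.717 in Ctrl and 3.53 in TGFB1.

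Set against the activators, *Serpine2* had 1.14 times the summed RPKM of *Plau* and *Plat* in *Hmga2*+/+ MEF with water and 0.824 times with TGFB1. The same ratio was 2.76 and 2.15 in *Hmga2*-/- MEF, above both *Hmga2*+/+ values. *Plat* made up 71.4% of the summed activator RPKM in *Hmga2*+/+ Ctrl, 80.9% in *Hmga2*+/+ TGFB1, 58.2% in *Hmga2*-/- Ctrl and 68.4% in *Hmga2*-/- TGFB1. The summed activators themselves went from 13.4 to 20.9 RPKM with TGFB1 in *Hmga2*+/+ MEF and from 13.2 to 18.8 RPKM in *Hmga2*-/- MEF. These are ratios of transcript levels per length, not of protein or activity.

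The substrate of the activators and most soluble inhibitors were not detected or nearly so. *Plg*, the plasminogen gene, and *Cpb2*, whose product protects fibrin from plasmin, were at 0 RPKM in all 4 libraries, and *Serpinf2*, the gene for the main plasmin inhibitor, did not exceed 0.065 RPKM. Of the 7 genes for plasminogen and for inhibitors of plasmin, its activators or fibrin breakdown, 2 reached 1 RPKM in at least 1 library. Of these, 0 rose and 1 fell at least 1.5-fold in each genotype. Among all expressed genes 12.1% rose and 17.5% fell in *Hmga2*+/+ MEF, and 13.8% rose and 15.8% fell in *Hmga2*-/- MEF. *Serping1*, which encodes the C1 inhibitor that also inhibits plasma kallikrein, fell from 7.48 to 0.706 RPKM with TGFB1 in *Hmga2*+/+ cells and from 8.63 to 1.16 RPKM in *Hmga2*-/- MEF, with log2 ratios of -3.41 and -2.90. *Serpini1*, the gene for neuroserpin, an inhibitor of the tissue-type activator, had log2 ratios of -0.27 and -0.23, of which both intervals include 0. Of the 4 genes for other routes to plasmin, *F12*, *Klkb1*, *Hpn* and *St14*, 0 reached 1 RPKM, the highest being *St14*, a membrane protease, at 0.582 RPKM with TGFB1 in *Hmga2*-/- cells.

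Of the 11 genes for cell surface partners, which bind plasminogen, urokinase receptor or the complexes of proteases and serpins, 8 reached 1 RPKM. With TGFB1, 2 of them rose at least 1.5-fold in each genotype, 0 fell in *Hmga2*+/+ and 1 fell in *Hmga2*-/- MEF, beside 12.1% and 13.8% of expressed genes that rose and 17.5% and 15.8% that fell. *Eno1*, a glycolytic enzyme that also binds plasminogen at the surface, rose 2.25-fold and 2.12-fold, a value that near-identical copies of the gene could affect. *Vldlr*, an endocytic receptor for complexes of urokinase with serpins, rose 1.97-fold in *Hmga2*+/+ (1.63 to 3.21 RPKM) and 1.98-fold in *Hmga2*-/- MEF (1.11 to 2.19 RPKM). *S100a10*, a plasminogen-binding partner of annexin A2, went from 168.8 to 148.3 RPKM in *Hmga2*+/+ and fell from 238.5 to 151.6 RPKM in *Hmga2*-/- MEF. *Plgrkt*, a plasminogen receptor of the cell membrane, had 23.2 and 19.1 RPKM in *Hmga2*+/+ Ctrl and TGFB1 and 24.8 and 18.6 RPKM in the *Hmga2*-/- counterparts. *Lrp1*, the main receptor that clears the complexes, had 57.3 to 62.9 RPKM in the 4 libraries.

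Because protease nexin 1 also inhibits thrombin, 5 genes listed on the thrombin side were examined, of which 4 reached 1 RPKM. In each genotype 3 of them rose and 1 fell at least 1.5-fold with TGFB1. Of expressed genes 12.1% rose and 17.5% fell in *Hmga2*+/+ cells, and 13.8% and 15.8% did in *Hmga2*-/- cells. The rises include *F2rl1*, a relative of the thrombin receptor that is activated by trypsin-like proteases other than thrombin. *F2rl1* went from 1.33 to 23.4 RPKM in *Hmga2*+/+ cells and from 1.51 to 33.0 RPKM in *Hmga2*-/- MEF. *F2r*, the thrombin receptor, rose 2.02-fold and 2.17-fold, and *F3*, which encodes tissue factor, rose by log2 ratios of 1.07 and 1.45. *Thbd*, which encodes thrombomodulin, a cofactor that redirects thrombin toward protein C, fell from 15.0 to 3.59 RPKM in *Hmga2*+/+ cells and from 20.5 to 3.70 RPKM in *Hmga2*-/- MEF. The thrombin gene *F2* itself was at 0 RPKM in 3 libraries and at 0.018 RPKM in the *Hmga2*-/- Ctrl library.

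**Figure D4:**
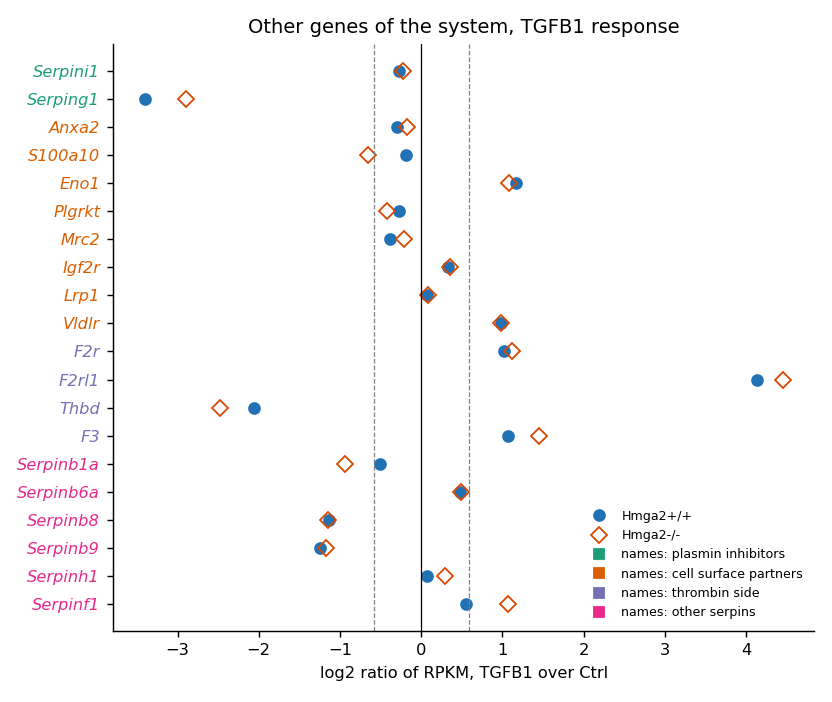
The log2 ratio of RPKM for TGFB1 over Ctrl in *Hmga2*+/+ (filled) and *Hmga2*-/- MEF (open) of the 20 other genes of the system that reached 1 RPKM, with names coloured by list and dashed lines at 1.5-fold. *F2rl1* lies farthest to the right, at 4.14 and 4.45, and *Serping1* and *Thbd* farthest to the left.

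Across the 5 lists, 35 genes were in the table and 20 reached 1 RPKM. Of these 20, 5 rose and 4 fell at least 1.5-fold with TGFB1 in *Hmga2*+/+ MEF, and 6 rose and 6 fell in *Hmga2*-/- MEF, where the shares of expressed genes were 12.1% and 17.5% in the former and 13.8% and 15.8% in the latter. Between genotypes 1 was higher and 1 lower in the *Hmga2*-/- Ctrl library, and 2 were higher and 0 lower in the *Hmga2*-/- TGFB1 library. The corresponding shares of expressed genes were 2.93% higher and 2.70% lower in Ctrl and 3.84% higher and 2.75% lower in TGFB1. Their median log2 ratio was -0.06 and -0.04 for TGFB1 in *Hmga2*+/+ and *Hmga2*-/- MEF, beside -0.05 and 0.01 over all expressed genes.

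Genes with the most similar pattern over the 4 libraries were found for each expressed member by the distance between log2 values of RPKM plus 0.1, each centred on its own mean. For *Plaur* they were *Fxyd5* (distance 0.13), *Lrrc15* (0.23) and *Plk2* (0.29), and 33 of 11294 genes lay within a distance of 0.5. The *Hmga2*+/+ Ctrl level of *Lrrc15*, 0.047 RPKM, was below the added 0.1, which shrinks the ratios of this gene. Without that addition its log2 TGFB1 ratio was 3.79 for *Hmga2*+/+ and 3.41 for *Hmga2*-/- MEF, larger than the 2.33 and 2.41 of *Plaur*. *Fxyd5*, which encodes a regulator of the sodium pump, went from 0.716 to 4.21 RPKM in *Hmga2*+/+ cells and from 1.26 to 7.40 RPKM in *Hmga2*-/- MEF. For *Serpine2* the nearest were *Tnn* (0.13), *Krt19* (0.17) and *Lhx9* (0.33), with 11 genes within 0.5. *Lhx9*, which encodes a LIM homeobox transcription factor, had 13.2, 17.0, 26.1 and 32.9 RPKM in the order *Hmga2*+/+ Ctrl, *Hmga2*+/+ TGFB1, *Hmga2*-/- Ctrl and *Hmga2*-/- TGFB1. The pattern of *Plau* was shared by many genes, with 1599 within 0.5, among them *Rhoj* (0.10) and *Csrp1* (0.11). For *Plat*, 830 genes lay within 0.5, and *Rasl11b* (0.02), a *Mir350* transcript of 98 bases (0.06) and *Cyp51* (0.12) were nearest. Between the members themselves the distance was smallest for *Serpine2* and *Plau*, at 0.70, and largest for *Plau* and *Plaur*, at 2.27. A distance over 4 libraries without replicates is a description of these libraries.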

How the data were processed

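RNA-seq was analysed for 4 libraries of MEF, 1 for each combination of *Hmga2* genotype and treatment. Reads had been trimmed (Trimmomatic) and aligned to mm10 (HISAT2 2.1.0, per the submitters' notes), and the authors deposited strand-specific RPKM of UCSC known genes, computed with HOMER; whether duplicates were pooled is not given in the sources used here. The only other deposited column used is the length of each transcript, which the authors give in bases. Per the file headers the counting was over exons, but the study's methods speak of genes.

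A transcript took the name of the GENCODE vM21 gene that covered 50% or more of it in the same orientation (57708 of 63759), and ties for the longest gene body went to the longer transcript. Values of 0 RPKM were set to 0.001, and reads were derived as RPKM times length times mapped reads. Mapped reads per library were the number at which low RPKM values of transcripts under 600 bases give whole reads, and 100% of 1303 to 1326 values per library lay within 0.1 of a whole read. Ratios have exact conditional binomial intervals and levels exact Poisson intervals. Simulated libraries of known depth and change were used to test these steps. Python 3.11.15, numpy 2.4.6, pandas 2.3.3, scipy 1.17.1 and matplotlib 3.10.9 were used.

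The members and the lists were chosen with earlier results of these data known. Named genes are the members, *Hmga2*, treatment markers, cell type markers and the 3 genes nearest in pattern to each member. From each list up to 4 genes with at least 1 RPKM are named, by the largest absolute log2 TGFB1 ratio in either genotype. *Lrp1*, *Kdr* and *Cd68* and the list genes at or near 0 were named after their values were seen. Some genes of the system or chosen by these rules are not reported here.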

Additional observations from a re-analysis of the deposited data

How the results depend on the processing

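No paired analysis was possible because each group holds 1 replicate, and no library was left out. For *Serpine2*, *Plau*, *Plaur* and *Plat*, all 100 ratios and differences under 5 alternatives stayed within 1.5-fold of the reported value. Among these alternatives was the transcript with the highest mean RPKM. For *Serpine2* and *Plat* it was the transcript already used, so those values could not change. The largest shift was that of the *Plaur* TGFB1 response under a pseudocount of 1, which gave log2 ratios of 1.92 in *Hmga2*+/+ and 2.15 in *Hmga2*-/- MEF, the 2 values that left their counting interval. The difference between genotypes in the *Plau* response changed sign when libraries were rescaled by the median ratio, at -0.004. At a 2-fold threshold, 2 members rose in *Hmga2*+/+ MEF (*Plaur*, and *Serpinb2* through its 3 reads) and 1 in *Hmga2*-/- MEF, beside 7.48% and 8.31% of all genes. At that threshold 1 member was higher in *Hmga2*-/- MEF in Ctrl and 1 in TGFB1, beside 6.08% and 6.49% of all genes. In the *Hmga2*-/- Ctrl library 0 members were lower at 2-fold, beside 6.39% of all genes. In TGFB1 1 member was lower, *Serpinb2* through its 3 reads, beside 5.97% of all genes. With a pseudocount of 1 or 0.1, *Serpinb2* lost both of its calls, so that 2 members rose in *Hmga2*+/+ MEF and 0 were lower in the *Hmga2*-/- TGFB1 library. Requiring at least 1 RPKM lowered the shares of all genes that were higher in *Hmga2*-/- MEF to 2.93% in Ctrl and 3.84% in TGFB1 and the shares that were lower to 2.70% and 2.75%. The other 52 of 61 counts, shares and medians stayed within 1.5 times, where a median of log2 values was judged by its shift on the log2 scale. The median difference between genotypes in the response of the 4 expressed members changed sign, from 0.01 to -0.04, when libraries were rescaled. Rescaling by the median ratio moved log2 ratios by at most 0.03. Depth limits *Serpinb2*, the list genes near 0, the TGFB1 ratio of *Plau* and the differences between genotypes in the response.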

Other observations

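Other serpins were examined beside the members. Of 8 genes, which comprise serpins of fibroblasts and of the *Serpinb2* gene cluster, 6 reached 1 RPKM, and with TGFB1 0 rose and 2 fell at least 1.5-fold in *Hmga2*+/+ MEF, while 1 rose and 3 fell in *Hmga2*-/- MEF. Of expressed genes 12.1% rose and 17.5% fell in *Hmga2*+/+ MEF, and 13.8% rose and 15.8% fell in *Hmga2*-/- MEF. *Serpinb8* fell from 2.90 to 1.32 RPKM in *Hmga2*+/+ cells and from 2.65 to 1.20 RPKM in *Hmga2*-/- MEF. *Serpinb9*, whose product inhibits granzyme B, fell from 2.09 to 0.882 RPKM and from 2.34 to 1.04 RPKM. *Serpinb1a*, which encodes an inhibitor of neutrophil elastase, went from 1.56 to 1.10 RPKM in *Hmga2*+/+ cells and fell from 2.92 to 1.52 RPKM in *Hmga2*-/- MEF. *Serpinf1*, the gene for pigment epithelium-derived factor, went from 48.3 to 71.1 RPKM in *Hmga2*+/+ cells and rose from 27.8 to 58.1 RPKM in *Hmga2*-/- MEF. The log2 response of *Serpinf1* was thus 0.56 in *Hmga2*+/+ (interval 0.50 to 0.61) and 1.06 in *Hmga2*-/- MEF (interval 0.99 to 1.14). These intervals do not overlap, but they cover counting error only. With 1 library per condition the difference between the responses was not tested. *Serpinb7* and *Serpinb10*, which flank *Serpinb2*, did not exceed 0.02 RPKM in any library.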
